A study of Caenorhabditis elegans with 2 samples.

Results

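The genes described here are 42 Caenorhabditis elegans genes of the cell cycle, the DREAM complex and DNA replication, taken as a named list from the 19973 protein-coding genes annotated on the 6 nuclear chromosomes. All 42 names were found in the annotation. They were read against a map of the T-box transcription factor TBX-2, made by chromatin immunoprecipitation and sequencing (ChIP-seq) with an antibody against GFP. Both samples were whole hermaphrodites of strain OP159, genotype unc-119(ed3) III; wgIs159, whose transgene expresses TBX-2 with GFP-FLAG at its C terminus. The larvae were at the first stage (L1), collected 6 h after synchronization by starvation following bleaching, and the 2 biological replicates form 1 group with no second condition. The sources used here give neither the promoter that drives the transgene, nor the strain of the control, nor the read depth, and the cells that carried the bound protein cannot be told apart in whole animals.

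Cell division is driven by cyclin-dependent kinases (CDKs) and their cyclins, with CDK inhibitors and the retinoblastoma protein as brakes. In worms the retinoblastoma protein LIN-35, the E2F-DP pair EFL-1 and DPL-1 and the MuvB proteins form the DREAM complex, which represses cell cycle genes in cells that are not dividing. Replication genes load the MCM helicase at origins and supply clamps and nucleotides, and mitotic kinases and the anaphase-promoting complex (APC/C) act later in the cycle. TBX-2 is itself known for a role in pharyngeal muscle.

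A gene was called bound when a peak of the authors' IDR list had its summit in the promoter. The promoter ran from 1000 bp before to 200 bp after any transcript start of a protein-coding gene. The IDR list keeps 4384 peaks after an irreproducible discovery rate (IDR) step, which compares how regions rank in the replicates, and its peaks are the 4384 strongest regions of the list made from both replicates pooled. The peak signal is the authors' caller's own value on a scale that is not stated, so it describes and orders peaks within a list and does not measure an amount of bound protein. The strongest summit of each role group is shown first, as the DNA that carried the peaks. Each is the 101 bp window centred on the summit, read 5′ to 3′ on the strand of the named gene, from the RefSeq genome of assembly WBcel235, which is ce11. Capitals mark a match to a searched motif, TTTGAA at lin-54, pcn-1 and wee-1.3 and GGTGTG at cki-2, on either strand. The lin-54 window was shortened by 16 bp, to 85 bp, where it met an annotated untranslated region.
lin-54: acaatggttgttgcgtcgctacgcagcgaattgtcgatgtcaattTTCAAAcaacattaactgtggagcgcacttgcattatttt
pcn-1: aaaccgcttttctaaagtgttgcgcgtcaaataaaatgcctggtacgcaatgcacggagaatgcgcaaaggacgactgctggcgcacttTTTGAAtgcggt
cdk-5: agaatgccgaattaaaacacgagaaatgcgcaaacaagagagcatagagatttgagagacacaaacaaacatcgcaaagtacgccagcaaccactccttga
wee-1.3: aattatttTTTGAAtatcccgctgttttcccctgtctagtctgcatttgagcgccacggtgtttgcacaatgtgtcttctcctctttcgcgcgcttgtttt
cki-2: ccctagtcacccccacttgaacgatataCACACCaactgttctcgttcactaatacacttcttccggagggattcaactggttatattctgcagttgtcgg
cdc-14: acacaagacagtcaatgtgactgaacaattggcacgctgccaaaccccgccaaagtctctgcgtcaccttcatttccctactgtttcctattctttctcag
These windows lie at chrIV:13240652-13240736 (lin-54, plus strand), chrIV:4049669-4049769 (pcn-1, minus), chrIII:13466392-13466492 (cdk-5, minus), chrII:9716801-9716901 (wee-1.3, minus), chrII:7815547-7815647 (cki-2, plus) and chrII:5593723-5593823 (cdc-14, minus).

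Of the 42 genes, 24 (57.1%) were bound, where 15.6% of all protein-coding genes were (3114 of 19973). Bound genes included the retinoblastoma gene lin-35 and most of the DREAM genes, the sliding clamp gene pcn-1 and 4 of the 6 MCM helicase genes. The 18 that were not bound included 4 of the 5 genes of the APC/C and mitotic exit group and 6 of the 10 genes of mitotic entry and mitotic kinases. With 1 of 5 and 4 of 10 bound, neither group had a bound share below the 15.6% of all genes. These counts therefore show no lack of binding relative to all genes. The median signal of the strongest promoter peak was 241 over the 24 bound genes, with a range of 76.8 to 1042, and 176 over all 3114 bound genes. Among the 42, 8 had a summit within the 500 strongest regions of the pooled list (19.0%), where 2.53% of all genes did. Both shares count a summit for every gene whose promoter holds it. Of the 8, lin-9 and pcn-1 had such a summit in no other gene's promoter, and the rest shared theirs with a neighbour. No test of the list was made, because the genes were named with earlier results of these data known.

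**Figure D1:**
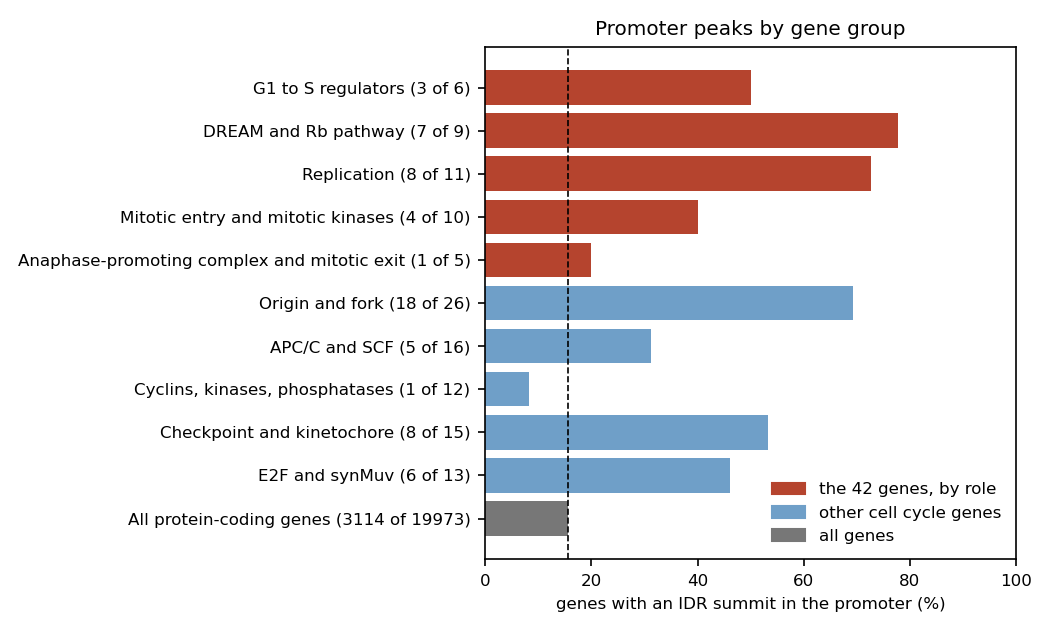
Percent of genes with an IDR summit in the promoter, for the role groups of the 42 genes (red), for groups of other cell cycle and replication genes (blue) and for all protein-coding genes (grey bar and dashed line, 15.6%); counts stand in the labels, and cdk-5, bound and alone in its group, is left out. The longest bars are DREAM and Rb pathway (7 of 9) and replication (8 of 11), and the bar for cyclins, kinases and phosphatases (1 of 12) ends below the dashed line.

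**Figure D2:**
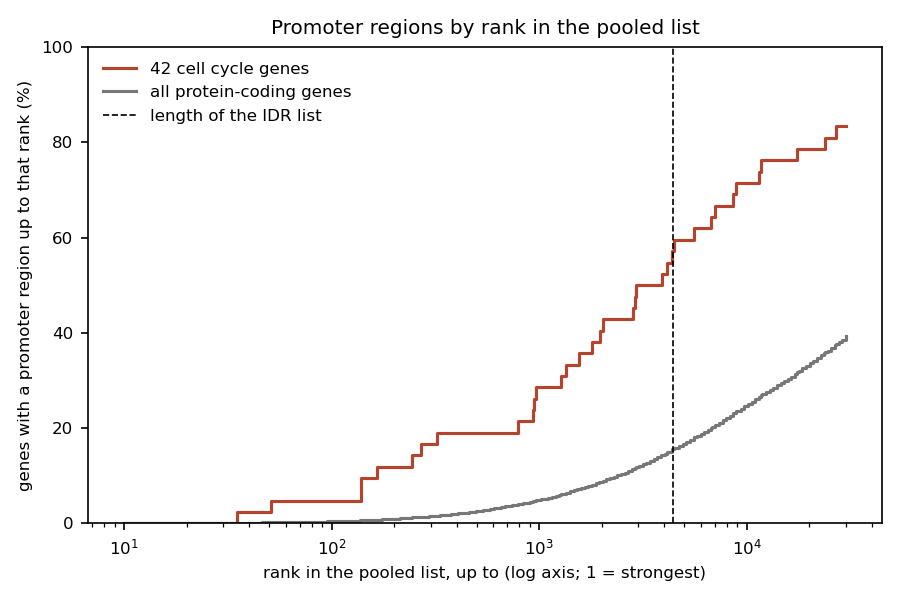
Percent of genes whose promoter holds a region of the pooled list up to a given rank (log axis, 1 is the strongest), for the 42 genes (red) and for all protein-coding genes (grey), with the length of the IDR list as a dashed line. The red line lies above the grey one from the first member on, and at rank 30000 the values are 83.3% and 39.3%.

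In the DREAM and retinoblastoma group 7 of 9 genes were bound, and lin-54 had the strongest peak of the 42 genes. The peak at lin-54, which encodes a MuvB protein that binds DNA, had a signal of 384 in replicate 1 and 662 in replicate 2, at ranks 40 and 32 of 30000, and 1042 in the IDR list. Its summit, at 13240686 on chromosome IV, lay 358 bp upstream of lin-54 and 35 bp upstream of rpl-12, a ribosomal protein gene on the other strand, so it cannot be given to one of them. The peak at lin-53, which encodes a histone-binding protein of the RbAp48 type, had 268 and 407 in replicates 1 and 2 (ranks 135 and 148). That summit, on chromosome I, lay 244 bp upstream of lin-53 and 223 bp upstream of nra-2, which is transcribed the other way.

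The MuvB gene lin-9 had a peak to itself, with its summit at 8904297 on chromosome III, 166 bp upstream of its start. It had 245 in replicate 1 and 398 in replicate 2 (ranks 171 and 155), and 640 in the IDR list. The E2F gene efl-1 had 218 and 336 in replicates 1 and 2 (ranks 220 and 245), 186 bp upstream of its start and 953 bp upstream of the F-box gene fbxa-90. The retinoblastoma gene lin-35 had 202 and 322 (ranks 276 and 271), 211 bp from its own start and 207 bp from that of vps-51 on the opposite strand. All 5 of these peaks ranked 276 or better in both replicates.

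The other genes of the group had weaker peaks or none. The gene lin-15B, which encodes a zinc finger protein that acts with DREAM in repressing germline genes in somatic cells, had 80.1 and 125 in replicates 1 and 2, at a summit 951 bp upstream of its start. The DP gene dpl-1, whose product pairs with EFL-1, had 36.0 and 77.2, at rank 2915 of the IDR list, with the summit in an exon of its neighbour T23G7.2. The MuvB genes lin-37 and lin-52 were not bound. In the promoter of lin-37 no list held a region, and in that of lin-52 the strongest pooled region ranked 6989. Both starts lie just behind a neighbour on the same strand, 60 bp from ZK418.5 for lin-37 and 126 bp from ZK632.9 for lin-52. Each of these neighbours had an IDR summit in its own promoter, 1605 bp upstream of lin-37 (signal 120) and 1438 bp upstream of lin-52 (157), outside the windows of the MuvB genes. Of the 42 genes, 6 start less than 500 bp behind a neighbour on the same strand. Of these, mcm-4 and rnr-1 were bound, rnr-1 only through an inner start, and lin-37, lin-52, mcm-5 and emb-30 were not. Among all protein-coding genes so placed, 374 of 3531 (10.6%) were bound. At emb-30 too the neighbour, pir-2, ending 96 bp away, had an IDR summit in its own promoter, 2193 bp upstream of emb-30 (signal 372). At mcm-5, 276 bp behind nth-1, no IDR summit lay within 5 kb of the start, and the nearest lay 6374 bp downstream. Genes this close behind a same-strand neighbour can be transcribed from its promoter as part of an operon in this species. No operon annotation was used here, so not bound refers to the window before the gene's own start.

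**Figure D3:**
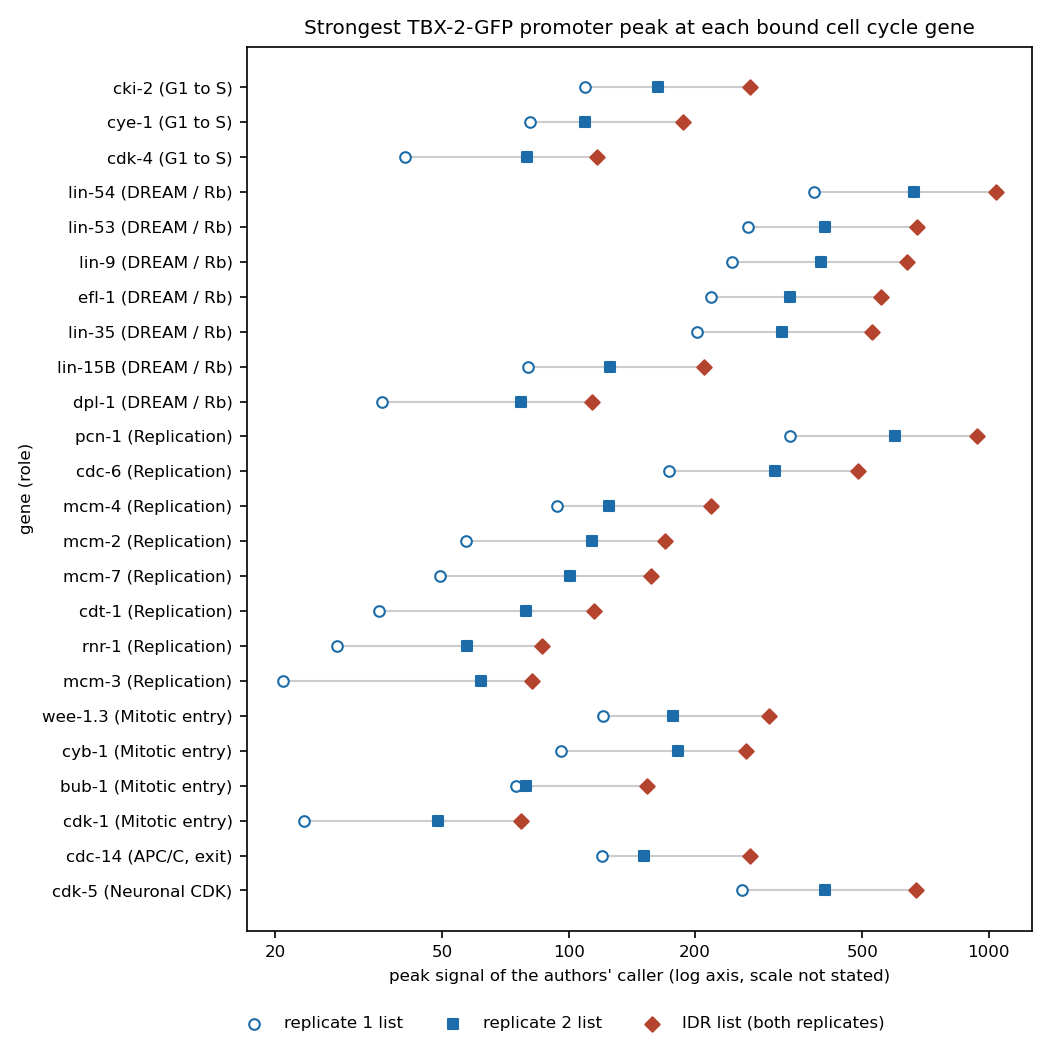
Peak signal of the strongest promoter peak at each of the 24 bound genes, ordered by role, in the list of replicate 1 (open circles), the list of replicate 2 (squares) and the IDR list made from both (diamonds), on a log axis in the authors' unstated unit. Replicate 2 is above replicate 1 at every gene shown, and the gap is narrowest at bub-1 (74.9 and 79.0) and widest at mcm-3 (20.9 and 61.7).

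Replication genes followed, with 8 of 11 bound. The gene pcn-1 encodes PCNA, the clamp that holds DNA polymerase on its template, and had 336 in replicate 1 and 598 in replicate 2 (ranks 66 and 45), and 935 in the IDR list. Its summit, at 4049719 on chromosome IV, lay 271 bp upstream of its start and in no other gene's promoter, so pcn-1 had the strongest peak among the 10 genes with a summit of their own. The origin licensing gene cdc-6 had 173 and 310 in replicates 1 and 2, with the summit shared with acin-1 on the opposite strand. The licensing factor gene cdt-1 had 35.3 and 79.3, at a summit 4 bp upstream of its start on chromosome I.

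The 6 genes of the MCM helicase, whose products work as 1 complex, had their strongest pooled regions at ranks between 1273 and 17439. The gene mcm-4 had 94.0 and 125 in replicates 1 and 2 (IDR rank 1273), and mcm-2 had 56.8 and 114 (rank 1785). The gene mcm-7 had 49.4 and 101 (rank 1961), at a summit that also lay in the promoters of hpo-18 and figl-1. The gene mcm-3 had 20.9 and 61.7 (rank 4131). At mcm-3 the replicates differed most among the peaks of the 42 genes, with rank 6813 in replicate 1 and rank 3431 in replicate 2. Just below the IDR threshold lay mcm-5, whose strongest pooled region ranked 4466 with a signal of 75.6, against 76.8 for the weakest IDR peak, and mcm-6 ranked 17439 with 19.5.

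The ribonucleotide reductase genes, which supply deoxyribonucleotides, also lay near or under the threshold. The large subunit gene rnr-1 had 28.1 in replicate 1 and 57.4 in replicate 2 (ranks 4912 and 3701), at a summit inside one of its own introns, 152 bp upstream of an inner transcript start. It is bound through that start only, and with the outermost start alone it was not. The small subunit gene rnr-2 had its strongest pooled region at rank 6709.

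Regulators of the step from G1 to S had 3 of 6 bound. The CDK inhibitor gene cki-2 had 109 in replicate 1 and 163 in replicate 2, at a summit 902 bp upstream of its start and in no other gene's promoter. Its paralogue cki-1, next to it on chromosome II, was not bound, with its strongest promoter region at rank 11696 and an IDR summit 1981 bp upstream (signal 82.8). The cyclin E gene cye-1 had 81.0 and 109 in replicates 1 and 2, at a summit 565 bp from its own start and 83 bp from that of pqn-21. The kinase gene cdk-4 had 40.8 and 79.7, 374 bp upstream of its start and 378 bp upstream of F18H3.1. Its cyclin partner cyd-1 had a pooled region at rank 23787 and none in either replicate list, and cdk-2 had its strongest at rank 8852.

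Of the genes of mitotic entry and mitotic kinases 4 of 10 were bound. The gene wee-1.3 encodes an inhibitory kinase of CDK-1 and had 120 in replicate 1 and 177 in replicate 2, at a summit of its own 384 bp upstream. The cyclin B gene cyb-1 had 95.7 and 182, but its summit lay 507 bp from its start and 121 bp from that of orc-5, an origin recognition gene on the other strand. The spindle checkpoint gene bub-1 had 74.9 and 79.0 at a summit shared with lin-61, at ranks 1492 and 2605. The mitotic kinase gene cdk-1 was the second to last peak of the IDR list, at rank 4383, with 23.5 and 48.8 in replicates 1 and 2 (ranks 5967 and 4419). Its summit was shared with iff-1, 108 bp from cdk-1 and 171 bp from iff-1.

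The remaining mitotic genes had weak regions or none. The Aurora A gene air-1 had its strongest pooled region at rank 5587. The cyclin A gene cya-1 was at rank 26918. For the cyclin B3 gene cyb-3, the Aurora B gene air-2 and the phosphatase gene cdc-25.1, no list held a region in the promoter, and the nearest IDR summits lay 69490, 48889 and 12222 bp away. The Polo kinase gene plk-1 had a region at rank 4809 in replicate 2 and none in replicate 1 or in the pooled list.

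In the APC/C and mitotic exit group, 1 of 5 genes was bound. The phosphatase gene cdc-14 had 2 summits, both shared with ttc-4. The stronger lay 346 bp upstream of cdc-14, with 120 in replicate 1 and 151 in replicate 2, and the weaker lay 976 bp upstream, with 39.0 and 63.4. The APC/C activator gene fzr-1 and the subunit gene emb-30 had their strongest pooled regions at ranks 11442 and 8539. The activator gene fzy-1 had regions in the replicate lists, at ranks 15201 and 8182 in replicates 1 and 2, and none in the pooled list. At the subunit gene emb-27, replicate 1 had a region at rank 2944 with a signal of 44.5, 287 bp upstream. Neither replicate 2 nor the pooled list held a region in that promoter.

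The kinase gene cdk-5, a CDK family member known for functions in neurons rather than in division, had 258 in replicate 1 and 408 in replicate 2. It ranked 147 in both. Its summit, at 13466442 on chromosome III, lay in an intron of kel-3, 100 bp upstream of cdk-5 and 136 bp upstream of a kel-3 start on the other strand. It was among the 8 members within the 500 strongest regions, with lin-54, lin-53, lin-9, efl-1, lin-35, pcn-1 and cdc-6.

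The replicates ranked the peaks of these genes alike. All 25 distinct summits in the promoters of the bound genes had a region in both replicate lists within 100 bp, and Spearman's rho of the replicate signals over the 25 was 0.975, a description over peaks that share 2 libraries and were selected from both. Among the 4384 strongest regions of each replicate, 22 of the 25 (88.0%) were found in both, against 80.2% of all IDR peaks. The exceptions were cdk-1, mcm-3 and rnr-1. The median ratio of replicate 2 to replicate 1 signal was 1.63 over the 25 peaks, with a range of 1.05 to 2.96, and 1.61 over the 4260 IDR peaks matched in both lists. The scale of the 2 lists is not stated, so this ratio is no measure of a difference in binding. With the 4384 strongest regions of replicate 1 alone, 22 genes were bound (15.5% of all genes), without cdk-1, mcm-3 and rnr-1 and with emb-27. With those of replicate 2 alone, 24 were (15.6% of all genes), without cdk-1 and with mcm-5.

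Summits sat upstream of the gene's nearest transcript start at all 24 genes. The strongest summit lay a median of 252 bp upstream (quartiles 166 and 362), and a median of 236.5 bp upstream over all bound genes (quartiles 128 and 426.5). Between 100 and 400 bp upstream lay 19 of the 24 (79.2%), where 53.8% of all bound genes had theirs. This band was not planned beforehand and encloses the quartiles of the 24, so the contrast only describes them. No strongest summit of the 24 lay downstream of the nearest start, where 4.34% did among all bound genes. With a share this small, none among 24 genes does not set them apart. At rnr-1 the nearest start is an inner one, and the summit lay downstream of the outermost start. The farthest, at lin-15B and cki-2, lay 951 and 902 bp upstream, next to the border of the window at 1000 bp. Of the 25 summits, 22 lay between coding genes, 2 in introns and 1 in an exon, and none lay within 200 bp of a small non-coding RNA gene. No shares over all IDR summits stand beside these counts, so they describe these summits only. Without summits near small non-coding RNA genes, 3017 of all protein-coding genes were still bound (15.1%), against 3114.

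**Figure D4:**
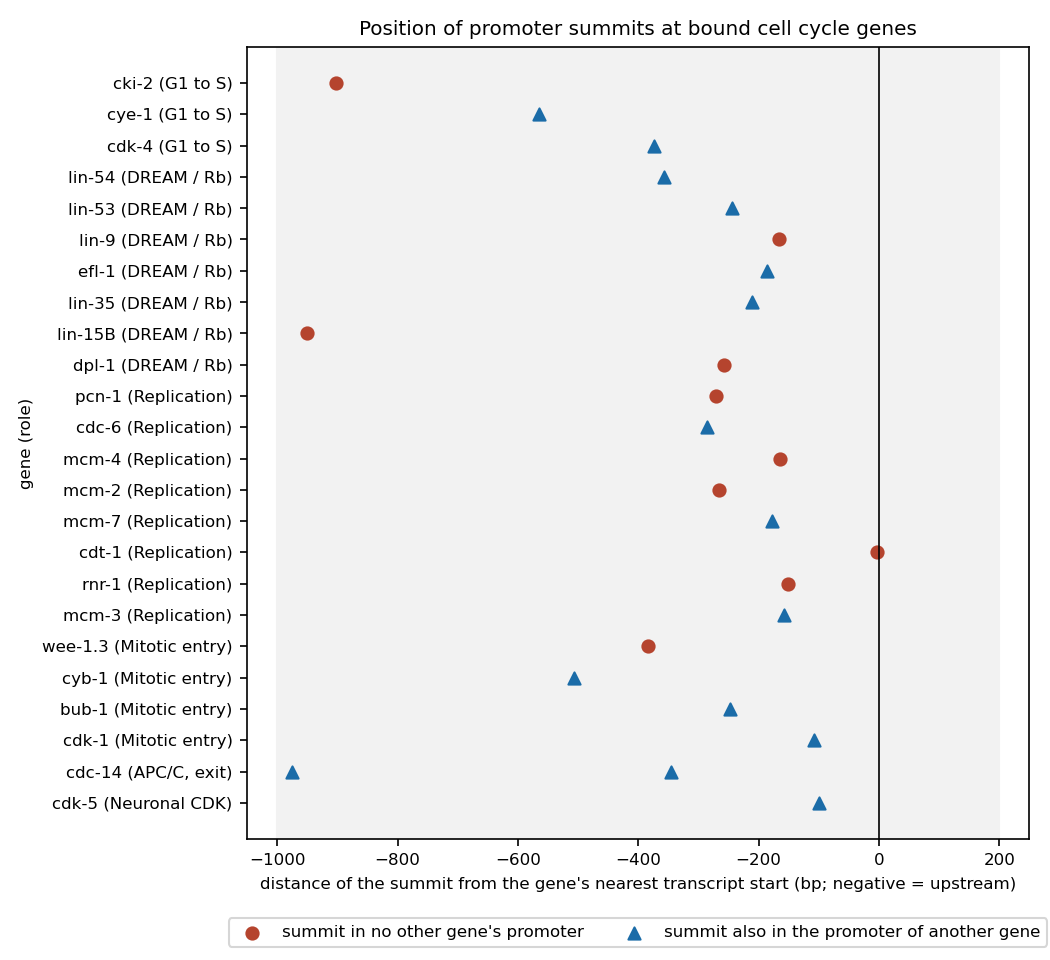
Distance of each of the 25 promoter summits from the nearest transcript start of the gene (bp, negative is upstream, the start at 0), with the promoter window shaded; circles are summits in no other gene's promoter and triangles are summits that also lie in the promoter of another gene. All points lie left of the start, and the summits of lin-15B, cki-2 and the weaker one of cdc-14 lie farthest upstream, at 951, 902 and 976 bp.

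Which of the 42 genes were bound depended on the window and on the threshold. With the 2192 strongest IDR peaks 18 were bound, against 9.49% of all genes, and with the 5737 strongest pooled regions 26 were, against 18.3%. A promoter of 500 bp before to 100 bp after a start left 20 (12.4% of all genes), without cki-2, cye-1, cyb-1 and lin-15B. One reaching 2000 bp upstream gave 28 (19.9% of all genes), with cki-1, fzr-1, lin-37 and lin-52. The outermost start alone gave 23 (14.4% of all genes). When each summit was given only to the nearest start within 2000 bp, 19 were bound (14.6% of all genes). The summits at lin-54, lin-53, lin-35, cdc-6, cyb-1 and mcm-3 then went to their neighbours, and cki-1 was added. The promoter summit of cye-1 went to pqn-21 as well, and cye-1 still counted as bound through another IDR summit, 972 bp downstream of a cye-1 start (signal 158) and outside the promoter window.

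For 14 of the 24 bound genes every promoter summit also lay in the promoter of another gene. The other 10 had a summit of their own, which is 41.7% of the bound members, against 51.2% of all bound genes. Counted over bound and unbound genes together, the shares were 23.8% of the 42 and 7.98% of all protein-coding genes, and these shares also carry the difference in how many genes were bound. These 10 were cki-2, dpl-1, lin-9, lin-15B, pcn-1, mcm-2, mcm-4, cdt-1, wee-1.3 and rnr-1. Of the 42 genes, 27 (64.3%) have a nearest upstream neighbour on the opposite strand, head to head, against 42.2% of all genes. In this arrangement 16 of the 27 were bound (59.3%), and 22.9% of all head-to-head genes. With the upstream neighbour on the same strand 6 of 12 were bound, and 9.96% of all such genes. By gene structure, 26 of the 42 (61.9%) have a single transcript start, against 73.7% of all genes. Of these 26, 15 were bound (57.7%), against 12.6% of all genes with a single start.

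The windows of 101 bp around the summits were searched for a few short words, on either strand. A match is a description and not a record of a binding site. The word TTTGAA, the form of the cell cycle homology region (CHR) that LIN-54 binds, lay at 12 of the 25 summits (48.0%). It lay at 18.6% of the 2487 IDR summits in any promoter and at 15.5% of all 4384 IDR summits. In windows of the same width 300 bp to either side of the 25 summits it was found in 32.0% (16 of 50). The median GC content of the windows was 48.5% at the 25 summits and 46.5% at all IDR summits. Over whole promoters of 1000 bp upstream to 200 bp downstream of the outermost start the word carries no contrast, being present in 97.6% of the 42 and in 97.6% of all. The second form, TTCGAA, lay at 3 of 25 summits and at 6.15% of the promoter summits.

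The 12 genes with TTTGAA at a summit were bub-1, cdk-1, dpl-1, lin-53, lin-54, lin-9, mcm-2, mcm-3, mcm-4, pcn-1, rnr-1 and wee-1.3. In the 9 of them whose sequence is shown, the word nearest to the summit was centred 14 to 41 bp from it. The matches at lin-54, pcn-1 and wee-1.3 stand in the windows printed above. For the other 6, the word is shown in capitals with 12 bases on either side, on the strand that reads TTTGAA.
cdk-1: taagcgtgtaatTTTGAAtcatttccactg
dpl-1: aaaaaacccaaaTTTGAAgacgcgccgtgc
lin-9: accatcacgctgTTTGAAatcggctgttgg
mcm-2: gccctcgcctctTTTGAAttctgtcgcgat
mcm-3: gaaaccttgctgTTTGAAtgagaaatgcgc
rnr-1: tttccttttgaaTTTGAAttccgatggagc
They lie at chrIII:9747386-9747415 (cdk-1, minus strand), chrII:9169661-9169690 (dpl-1, minus), chrIII:8904243-8904272 (lin-9, minus), chrII:12006849-12006878 (mcm-2, plus), chrV:15059710-15059739 (mcm-3, minus) and chrIII:9228406-9228435 (rnr-1, minus). The mcm-3 and rnr-1 windows each held a second match.

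Words of the E2F type were rarer. Of 3 such words, TTCCCGC lay at the summits of efl-1, cdt-1 and mcm-4. The word TTGGCGC lay at mcm-4 as well (4.0%, against 4.70%), and TTGCCGC at cye-1 (4.0%, against 2.25%). At least 1 of the 3 lay at 4 of 25 summits (16.0%) and at 9.37% of the 2487 promoter summits. Over the whole promoters at the outermost start, TTCCCGC was present in 12 of the 42 (28.6%, against 11.4% of all protein-coding genes). In the same windows TTGGCGC was present in 10 of the 42 (23.8%, against 7.66%) and TTGCCGC in 10 (23.8%, against 10.5%). The base composition of these promoters was not compared. At efl-1, itself an E2F gene, the word TTCCCGC lay 39 bp from the summit. It is shown in capitals with its flanks at chrV:16965886-16965914, minus strand.
efl-1: agcgaaactttTTCCCGCggaaatttgag
The T-box word GGTGTGA lay at none of the 25 summits and at 1.09% of the promoter summits. Over whole promoters it was present in 2 of the 42 (4.76%) and in 8.28% of all. The shorter GGTGTG, which the longer word contains, lay at 1 of the 25, at cki-2, and at 5.79% of the promoter summits.

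Other genes of the same processes, from a second list of 84 names of which 82 were found, had 38 bound (46.3%, against 15.6% of all genes). Genes of the origin and the replication fork had 18 of 26 bound, led by the clamp loader gene rfc-4 (signal 656, summit shared with eef-1A.1), mcm-10 (431, shared with teg-1) and the primase gene pri-2 (354, shared with W02D9.2). Checkpoint and kinetochore genes had 8 of 15, led by the spindle checkpoint gene mdf-2 (383, shared with nduv-3). The E2F and synMuv group, which holds chromatin and retinoblastoma pathway genes, had 6 of 13, led by lin-36 (421), a synMuv gene with a summit of its own. Genes of the APC/C and SCF group had 5 of 16. The strongest peak was at the AAA ATPase gene cdc-48.1 (1506), listed here though its product is a subunit of neither complex. Next came emb-1 (613, shared with K10D2.5 and prp-19), the APC/C gene gfi-3 (393) and the F-box gene lin-23 (363). Of 12 other cyclins, kinases and phosphatases 1 was bound, cdk-7 (324), which is 8.33% against 15.6% of all genes. The summit of orc-5 is the one at cyb-1 and that of lin-61 the one at bub-1. At the other 36 summits of this list TTTGAA was found in 9. At least 1 of the 3 E2F-type words was found at 6 of these 36 (16.7%), against 16.0% of the 25 and 9.37% of the promoter summits. Differences between the groups were not tested.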

How the data were processed

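Whole L1 larvae were profiled by anti-GFP ChIP-seq in 2 biological replicates of 1 group. The authors' deposited peak lists give each region a summit, a peak signal and a −log10 q-value from their caller. Per the deposited notes, the alignments of both replicates and of a control went into these lists, on ce10 and ce11. No source used here gives the aligner, caller or IDR threshold. The deposited −log10 q-values were not used in any result, and of the ce10 lists only the length of the IDR list was. No read counts were used, so depth is unknown.

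Summits were computed as column 2 plus column 10, counted from 1, and joined to Ensembl release 115 gene models, whose chromosome lengths fit the lists. Genes within the promoter window were all credited with a summit. A peak was paired with the replicate region whose summit was closest, up to 100 bp away. Where the promoter of an unbound gene is described, its strongest region by signal was taken in each list. The members and lists were chosen with earlier results of these data known. All members are named, with the 10 genes of the second list with the strongest peaks. Python 3.11.15, numpy 2.4.6, pandas 2.3.3 and scipy 1.17.1 were used, and the assignment was tested on simulated summits. No statistical test was made: there is 1 group, so no groups could be compared, and the list was not tested against all genes because it was chosen with earlier results known. The alternatives are in the closing section.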

Additional observations from a re-analysis of the deposited data

How the results depend on the processing

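The count of bound genes among the 42 stayed between 18 and 28 under 10 alternatives, against 24. It was 18 with the 2192 strongest IDR peaks, where the count over all protein-coding genes was 1896 (9.49%) against 3114. The 6 genes lost there were cdk-1, cdk-4, cdt-1, dpl-1, mcm-3 and rnr-1. With 5737 pooled regions, as many as the ce10 IDR list has peaks, mcm-5 and air-1 were added. A window of 500 bp upstream to 100 bp downstream gave 20, losing cki-2, cyb-1, cye-1 and lin-15B, and one of 2000 bp upstream gave 28, adding cki-1, fzr-1, lin-37 and lin-52. Assignment to the nearest start within 2000 bp gave 19 (14.6% of all genes), all counted as unshared against 10, because each summit then goes to 1 gene. It lost cdc-6, cyb-1, lin-35, lin-53, lin-54 and mcm-3, whose neighbours are nearer, and added cki-1, while cye-1 was kept through a different summit, 972 bp downstream of a start. Without replicate 1 cdk-1 was lost and mcm-5 added; without replicate 2 cdk-1, mcm-3 and rnr-1 were lost and emb-27 added. Leaving out summits near small non-coding RNA genes, chosen after seeing the data, lost none of the 24. It could not lose any, because none of the 25 summits lies near such a gene. Matching within 50 bp left 24 of the 25 summits matched in both replicate lists, and matching within 200 bp or to the strongest region left 25. No paired analysis was possible because there is 1 group. The unknown depth limits statements on unbound genes: a region below the threshold is not shown to lack the protein.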
